A study of Rattus norvegicus with 8 samples.

Results

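Myc and other immediate early response genes were compared in whole kidneys of Si deplete and Si replete rats. The genes were taken from a list of 36 symbols, and each was read on 1 probe set with that single symbol in the platform annotation, the probe set with the highest mean over the 8 arrays. Of the 36 genes, 35 were measured in this way, among 14217 genes with a single symbol. Btg2 had no probe set under this rule and was not analysed here. In the deposited values 21 of the 35 genes had 1 probe set and 14 had several, 61 probe sets in all.

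The kidneys came from female Sprague-Dawley rats, an outbred strain. The daily Si intake was 0.17 mg per kg in the Si deplete group and 4.1 mg per kg in the Si replete group, for 26 weeks, until the rats were 29 weeks old. Both groups ate the same low-Si feed, and the Si replete rats received orthosilicic acid in their drinking water. The rats were killed with carbon dioxide gas, 1 at a time, and the tissues were put into frozen storage at harvest. The part of this handling in the levels below was not tested. RNA of 1 ground left kidney was hybridized per array, with 4 Si deplete and 4 Si replete arrays. All levels below are log2 gcRMA levels of a probe set. The ground kidney holds every cell type of the organ: the proximal tubule markers averaged 10.9 to 11.7 in the Si deplete arrays and 11.1 to 11.8 in the Si replete arrays. Markers of the adrenal cortex, which could have been taken along, averaged 2.01 to 2.30 in Si deplete arrays and 2.25 to 2.40 in Si replete arrays.

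Immediate early genes are transcribed within minutes of a growth factor, a cytokine, stress or injury, from factors already present in the cell and without new protein synthesis. Extracellular signal-regulated kinase acts through serum response factor at the CArG box, and cyclic AMP and stress kinases act through CREB at the cyclic AMP response element. Many of the products are transcription factors (Fos, Jun, Egr, Atf3, Klf and Nr4a proteins), and others, such as the dual specificity phosphatases and tristetraprolin, shut the signal off. Myc, a basic helix-loop-helix factor that binds the E-box with Max, drives growth and ribosome production. In injured kidney epithelium several of these genes are among the early transcripts.

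The promoter sequences in RefSeq, assembly GRCr8, ran from 250 bases before to 50 bases after the annotated start. They were available for 25 of the 36 genes, in 27 entries. Myc, Fos, Jun and Atf3 were among the genes without an entry, so no motif was searched for in them. The 25 include Btg2, which was not measured on the arrays. The CArG box was found in 5 of the 27 (18.5%) and in 1.64% of the 33469 promoters of the table. It lay before the start of Egr1, Egr2, Klf6, Dusp5 and Zfp36. The 250 bases before the start are shown for 4 of these genes, which span a wide range of differences between the diets, with each CArG box in capitals. They are Egr2 (chr20:21054442-21054691, minus strand), Klf6 (chr17:69458479-69458728, minus strand), Dusp5 (chr1:262543524-262543773, plus strand) and Zfp36 (chr1:92799109-92799358, minus strand), written 5′ to 3′ on the gene's own strand.
Egr2: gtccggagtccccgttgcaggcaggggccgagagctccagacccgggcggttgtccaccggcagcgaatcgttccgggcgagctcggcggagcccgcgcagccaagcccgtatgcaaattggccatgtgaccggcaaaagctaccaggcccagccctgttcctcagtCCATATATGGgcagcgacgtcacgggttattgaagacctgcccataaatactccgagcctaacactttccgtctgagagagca
Klf6: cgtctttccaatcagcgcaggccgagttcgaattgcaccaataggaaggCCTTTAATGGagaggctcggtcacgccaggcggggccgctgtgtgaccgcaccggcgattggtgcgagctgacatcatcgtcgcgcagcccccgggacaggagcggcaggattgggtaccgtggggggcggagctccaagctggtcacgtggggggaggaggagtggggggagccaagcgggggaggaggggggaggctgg
Dusp5: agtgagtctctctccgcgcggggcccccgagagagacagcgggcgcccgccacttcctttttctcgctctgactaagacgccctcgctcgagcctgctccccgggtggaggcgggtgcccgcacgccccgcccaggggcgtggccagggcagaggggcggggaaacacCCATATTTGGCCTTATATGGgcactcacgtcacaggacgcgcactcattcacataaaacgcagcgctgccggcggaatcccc
Zfp36: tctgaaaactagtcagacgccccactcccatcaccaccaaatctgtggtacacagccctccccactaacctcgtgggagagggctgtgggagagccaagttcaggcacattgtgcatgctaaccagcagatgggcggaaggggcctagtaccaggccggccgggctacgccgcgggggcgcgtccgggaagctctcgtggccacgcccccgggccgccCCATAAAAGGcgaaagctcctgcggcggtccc
Dusp5 carried a pair of adjoining boxes, at -82 to -73 and -72 to -63 from the start. Egr2 had 1 at -83 to -74, Zfp36 had 1 at -32 to -23, and Klf6 had 1 farther out, at -201 to -192. Klf6 also carried an E-box at -56 to -51.

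Other motifs were searched on both strands of the same windows. The cyclic AMP response element TGACGTCA was in 5 of the 27 promoters (18.5%, against 1.83% of all promoters), those of Btg2, Dusp1, Ier2, Jund and Maff. The shorter TGACG, which the full element contains, was in 17 (63.0%, against 21.2%). The Egr site GCGNGGGCG was in 9 (33.3%, against 4.98%), the E-box CACGTG in 5 (18.5%, against 6.42%) and the TATA box TATAAA in 8 (29.6%, against 14.2%). Among the promoters available, the AP-1 site TGANTCA was in that of Sgk1 alone (3.70%, against 7.33%). These matches describe letters in a window and are not measured binding sites.

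Myc was the 1 gene of the 35 that passed the test on the probe set with the highest mean, called its brightest probe set here. Its levels were 9.0, 8.31, 7.60 and 8.34 in the Si deplete kidneys, against 6.11, 5.59, 5.66 and 6.76 in the Si replete kidneys. Every Si deplete array lay above every Si replete array. The means were 8.31 ± 0.57 and 6.03 ± 0.54 (SD, n = 4 each), so that Myc rose by 2.28 on the log2 scale (SE 0.32, 95% interval 1.55 to 3.01) or 4.86-fold, with a limma adjusted p of 0.0817 over all probe sets. Over all 31042 probe sets tested, 0.151% passed at an adjusted p under 0.1, and among the 14217 genes 0.169% passed as higher and 0.0352% as lower. In a ground kidney, more cells that express a gene and more RNA per cell cannot be told apart. Leaving out Si deplete replicate 2 or 4, or Si replete replicate 1, 2 or 3, ended the call of Myc, and its adjusted p lay between 0.0570 and 0.307 over the alternative settings. The fold change itself stayed between 2.05 and 2.53 on the log2 scale.

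The other 34 genes did not pass, and none passed as lower, yet most leaned one way. The log2 fold change was above 0 for 33 of the 35 genes, with a median of 0.40 for the 35 and 0.00013 for all 14217 genes. At an unadjusted p under 0.05 in limma 17 of the 35 (48.6%) were higher in Si deplete kidneys, where 10.5% of all genes were, and none was lower, where 7.95% of all genes were. The 4 Si deplete arrays lay wholly above the 4 Si replete arrays for 7 of the 35 genes (20%), namely Fosl1, Jun, Egr1, Atf3, Ier5, Klf6 and Myc, against 6.45% of all genes. None of the 35 lay wholly below, against 5.49% of all genes. The genes were assembled with results of these arrays known, so these counts describe the list and test nothing.

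**Figure D1:**
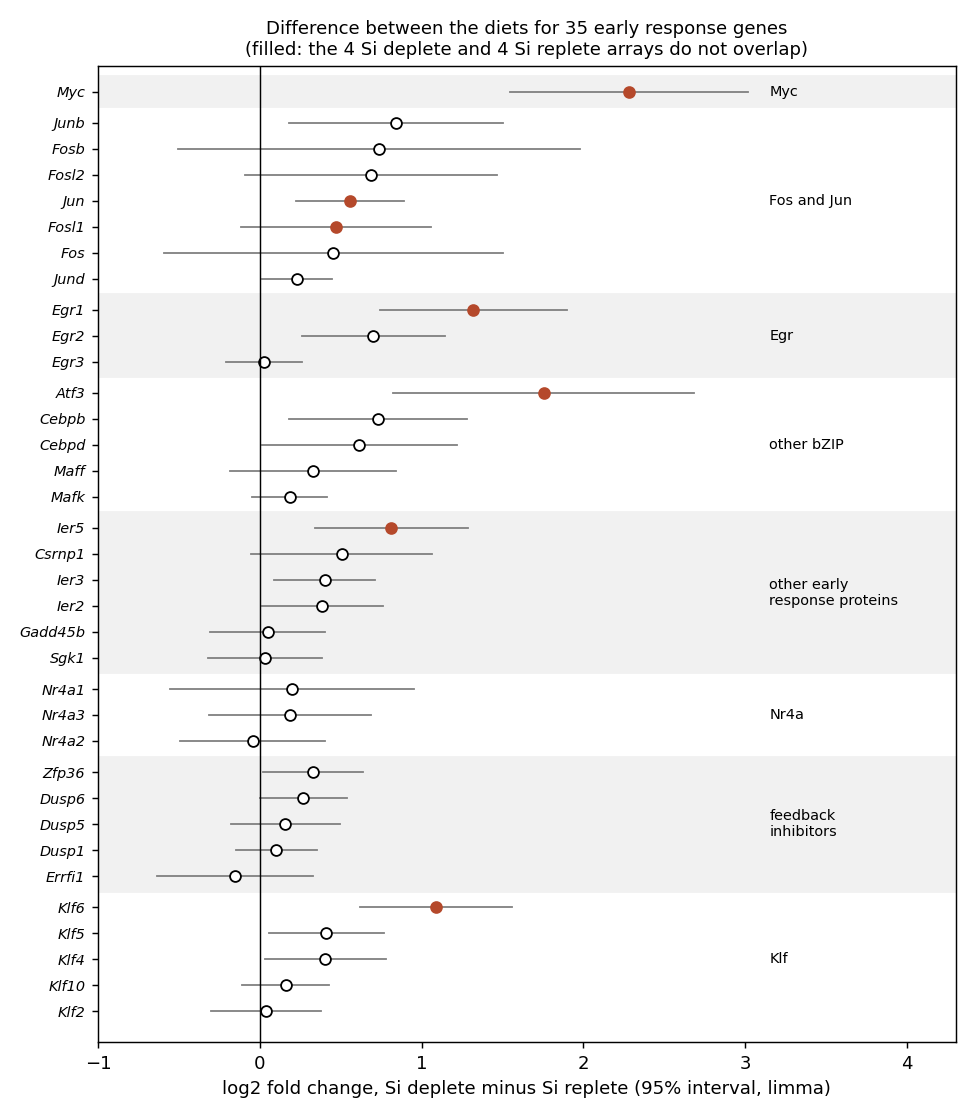
Log2 fold change of the Si deplete over the Si replete group for the 35 genes, by role, each on its brightest probe set, with limma's 95% interval as a line (n = 4 arrays each). Filled points mark the 7 genes whose groups do not overlap; Myc stands at 2.28, and Nr4a2 and Errfi1 are the genes below 0.

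Among the Egr zinc finger factors, which bind GC-rich promoter sites after growth factor signals, all 3 were above 0 and none passed. Egr1 had levels of 9.74, 8.95, 9.05 and 9.13 in Si deplete kidneys, against 8.30, 7.87, 8.21 and 7.20 in Si replete kidneys. The groups were separate by 0.65, and Si replete replicate 4 was the lowest array. Its log2 fold change was 1.32 (SE 0.26, 95% interval 0.74 to 1.90), 2.50-fold, with an adjusted p of 0.134. Egr2 measured 3.87, 3.89, 3.21 and 3.93 in Si deplete kidneys and 3.09, 2.97, 2.64 and 3.38 in Si replete kidneys. Its groups met only through Si deplete replicate 3 and Si replete replicate 4. The log2 fold change was 0.70 (SE 0.20, adjusted p 0.198), at a mean level under 4, as it was for 51.3% of the probe sets of the array. Egr3 was dimmer still, near 1.9 in both groups, with a difference of 0.027 and an interval of -0.21 to 0.26.

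Of the bZIP factors outside the Fos and Jun families, Atf3, a repressor induced by stress and injury, differed most. Its levels were 8.80, 7.14, 6.43 and 7.38 in Si deplete kidneys, against 5.56, 5.68, 5.89 and 5.60 in Si replete kidneys. The Si replete arrays lay within a narrow band (SD 0.15), and the Si deplete arrays were spread above it (SD 0.99). The log2 fold change was 1.76 (SE 0.41, 95% interval 0.83 to 2.69), 3.38-fold, with an adjusted p of 0.165. Cebpb, a factor of the acute phase response, had levels of 10.28, 9.55, 8.94 and 9.37 in Si deplete kidneys, against 8.59, 8.86, 8.96 and 8.80 in Si replete kidneys. Si deplete replicate 3 fell inside the Si replete range, and the log2 fold change was 0.73 (SE 0.24, adjusted p 0.238). Cebpd, its partner in that response, had 0.62, and the small Maf proteins Maff and Mafk had 0.33 and 0.19, with adjusted p between 0.328 and 0.525 for the 3.

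**Figure D2:**
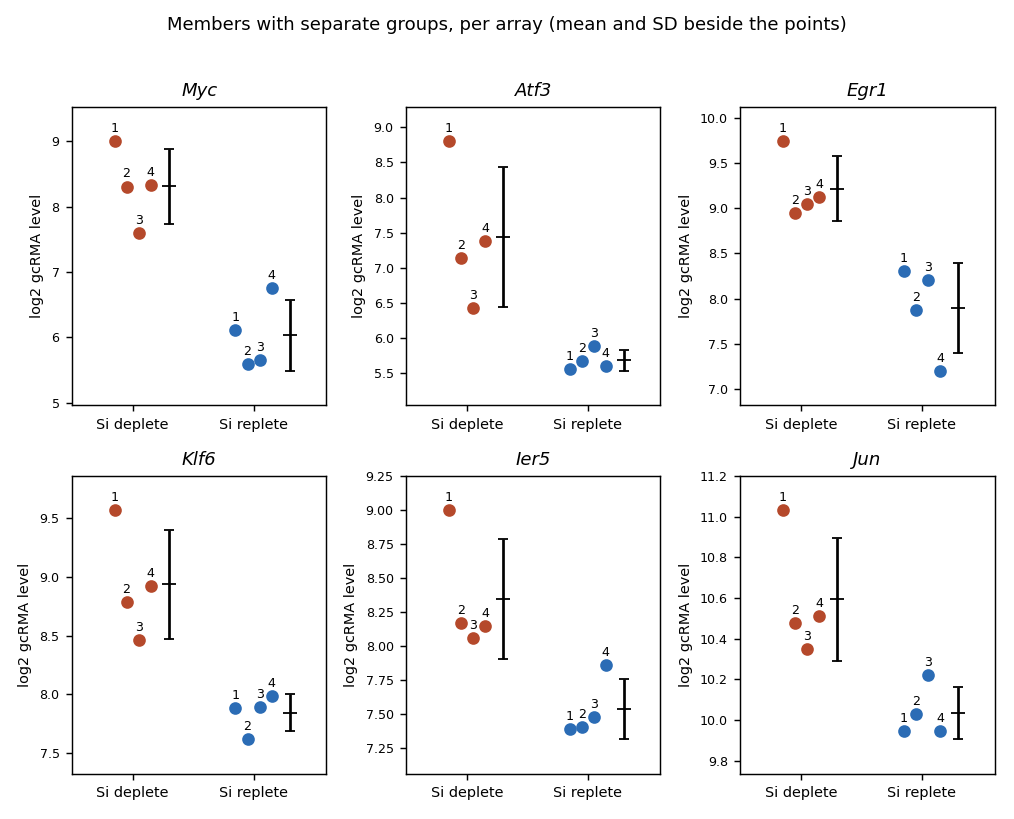
Log2 gcRMA levels of Myc, Atf3, Egr1, Klf6, Ier5 and Jun in each array, Si deplete left and Si replete right, numbered by replicate, with the mean and SD of each group beside the points. All 4 Si deplete points lie above all 4 Si replete points in every panel, and Si deplete replicate 1 is the highest array for each of the 6 genes.

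Klf6, a zinc finger factor known as an early injury gene of the proximal tubule, was separate between the diets on all 3 of its probe sets. Its brightest probe set read 9.57, 8.78, 8.47 and 8.92 in Si deplete kidneys, against 7.88, 7.62, 7.89 and 7.99 in Si replete kidneys. The groups were separate, with a log2 fold change of 1.09 (SE 0.21, 95% interval 0.62 to 1.56), 2.13-fold, and an adjusted p of 0.134. A further probe set of Klf6 rose by 0.92 (SE 0.14) and passed at an adjusted p of 0.0864, and the third had 1.47 (SE 0.24) at 0.108. Klf5, a factor of proliferating epithelium, had levels of 6.32, 5.77, 6.36 and 6.01 in Si deplete kidneys and 5.69, 5.42, 5.96 and 5.74 in Si replete kidneys. Klf4, which restrains proliferation, had 9.60, 9.18, 9.24 and 9.58 in Si deplete kidneys and 9.41, 8.97, 8.92 and 8.69 in Si replete kidneys. Each of the pair overlapped between the diets and differed by about the same amount, 0.41 for Klf5 (adjusted p 0.282) and 0.40 for Klf4 (adjusted p 0.307). Klf10, induced by transforming growth factor beta, had 0.16, and Klf2, a flow-responsive factor of endothelium, had 0.038 with its other 4 probe sets between -0.17 and -0.030.

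The subunits of AP-1, the dimer that Fos and Jun proteins form, were all above 0 and none passed. Jun read 11.03, 10.48, 10.35 and 10.51 in Si deplete kidneys, against 9.94, 10.03, 10.22 and 9.94 in Si replete kidneys. The groups were separate by 0.13, and the log2 fold change was 0.56 (SE 0.15, adjusted p 0.183). The other 2 probe sets of Jun, separate too, had 0.54 and 0.67 (adjusted p 0.199 and 0.126). Junb had levels of 8.24, 7.06, 6.64 and 7.25 in Si deplete kidneys, against 6.30, 6.66, 6.58 and 6.27 in Si replete kidneys. Only Si deplete replicate 3 reached into the Si replete range, and the log2 fold change was 0.84 (SE 0.29, adjusted p 0.250). Jund, the family member made constantly in many tissues, had 0.23 (adjusted p 0.317).

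Fos itself did not separate the diets. Its levels were 10.14, 8.54, 8.57 and 9.03 in Si deplete kidneys, against 9.03, 8.95, 9.15 and 7.33 in Si replete kidneys. Si deplete replicate 1 was high and Si replete replicate 4 low, while the remaining 3 arrays of each group overlapped, with Si deplete replicates 2 and 3 below all 3 of the Si replete ones. The log2 fold change was 0.46 with an interval of -0.59 to 1.51, and the second Fos probe set had -0.13. Without those 2 arrays, a choice made after seeing the data, it was -0.33. Fosb ranged from 2.48 to 5.36 in Si deplete kidneys and from 2.21 to 3.10 in Si replete kidneys, with Si deplete replicate 1 alone above the Si replete range. Fosl2, at 3.01 to 4.72 in Si deplete kidneys and 2.46 to 3.12 in Si replete kidneys, was also highest in Si deplete replicate 1 (log2 fold change 0.69, adjusted p 0.383). Fosl1 was separate, at 2.11 to 3.42 in Si deplete kidneys and 1.93 to 2.08 in Si replete kidneys, but by 0.027 only and at a dim level (log2 fold change 0.47, adjusted p 0.425).

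**Figure D3:**
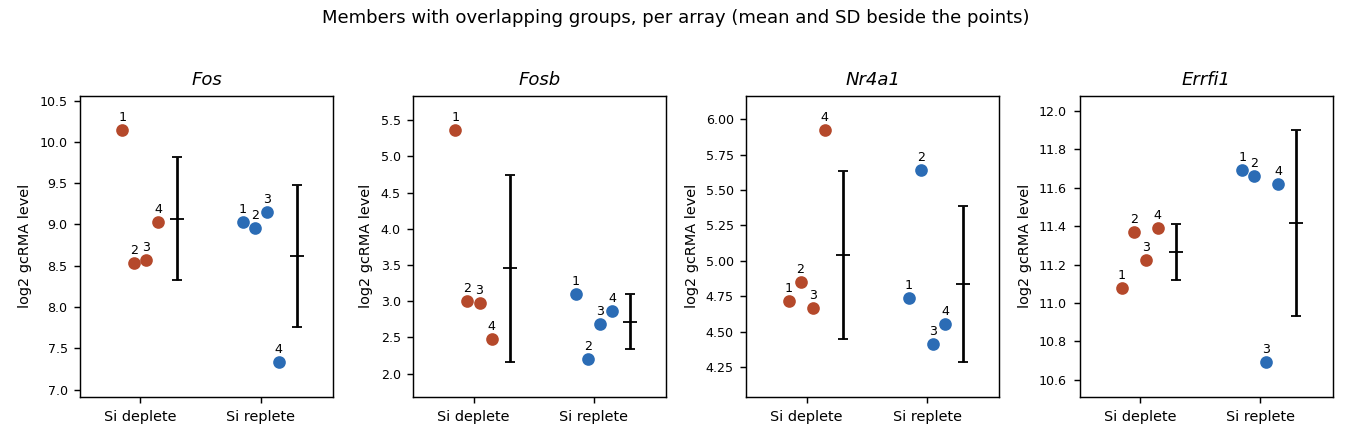
Log2 gcRMA levels of Fos, Fosb, Nr4a1 and Errfi1 in each array, Si deplete left and Si replete right, numbered by replicate, with the mean and SD of each group beside the points. Single arrays set the group means: Si deplete replicate 1 for Fosb at 5.36, Si replete replicate 4 for Fos at 7.33 and Si replete replicate 3 for Errfi1 at 10.7.

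Of the remaining early response proteins, Ier5, a regulator of the heat shock factor and of phosphatase activity, was separate between the diets. Its levels were 9.0, 8.17, 8.06 and 8.15 in Si deplete kidneys, against 7.39, 7.40, 7.48 and 7.86 in Si replete kidneys. The 3 lower Si deplete arrays lay close together and above every Si replete array. The log2 fold change was 0.81 (SE 0.21, adjusted p 0.179), while the 2 dim probe sets of Ier5 had 0.10 and 0.20. Ier3, an inhibitor of apoptosis in many cells, had 10.25, 9.95, 9.72 and 10.26 in Si deplete kidneys, against 9.66, 9.86, 9.60 and 9.47 in Si replete kidneys. Si replete replicate 2 was the array that overlapped, and the log2 fold change was 0.40 (SE 0.14, adjusted p 0.249). Ier2 had 0.39 and Csrnp1, an Axin-induced nuclear protein, had 0.51 (adjusted p 0.324 and 0.375). Gadd45b, a growth arrest and stress kinase adaptor, and Sgk1, the aldosterone-induced kinase that stimulates sodium uptake, lay near 0, at 0.048 (95% interval -0.31 to 0.40) and 0.033 (95% interval -0.32 to 0.38).

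The feedback inhibitors showed smaller differences. Zfp36, or tristetraprolin, which speeds the decay of cytokine mRNA, had 8.56, 8.15, 8.10 and 8.26 in Si deplete kidneys, against 7.88, 8.07, 7.66 and 8.15 in Si replete kidneys. Its ranges touched, through Si deplete replicates 2 and 3 and Si replete replicate 4, and the log2 fold change was 0.33 (SE 0.14, adjusted p 0.313). Of the phosphatases of MAP kinases, Dusp6 had 0.27 (adjusted p 0.331), Dusp5 0.16 and Dusp1 0.10. The probe sets of Dusp6 disagreed, with 0.47 and -0.34 on the other 2. Errfi1, the inhibitor of the epidermal growth factor receptor also called Mig6, was at -0.15 (95% interval -0.63 to 0.33). Its 3 higher Si replete arrays, from 11.6 to 11.7, lay above all Si deplete arrays, which ranged from 11.1 to 11.4, and Si replete replicate 3 lay below them at 10.7.

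None of the 3 Nr4a orphan nuclear receptors, early factors that act without a known bound hormone, was separate or reached an unadjusted p under 0.05. Nr4a1 ranged from 4.67 to 5.92 in Si deplete kidneys and from 4.41 to 5.64 in Si replete kidneys, with Si deplete replicate 4 and Si replete replicate 2 each high within its group. Its log2 fold change was 0.20 (95% interval -0.55 to 0.96). Nr4a2 was at -0.043, with -0.23 on a dim second probe set, and Nr4a3 at 0.18, and the intervals of both crossed 0. At 4 arrays a group, intervals of this width cannot show that the receptors were alike between the diets.

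Over the 26 further probe sets of these genes, 15 were above 0 and 11 below, and 1, that of Klf6, passed. Of the 12 with a mean level of at least 4, 8 were above 0. The 4 below 0 hold a Dusp6 probe set that reached an unadjusted p under 0.05 in the opposite direction to the brightest one. The dim second probe set of Nr4a2 was the other lower one at that p. The direction differed between probe sets of the same gene for Dusp6, Dusp1, Klf2, Fos, Jund, Cebpd and Nr4a3, and for the last 4 of these the opposite probe set was dim.

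The arrays differed within the Si deplete group, and 1 kidney stood apart. Si deplete replicate 1 had the highest level for 22 of the 35 genes (62.9%), against 26.7% of all 14217 genes, and it lay farthest out on the first principal component of all probe sets. The median of the 35 genes, each as its deviation from its mean over 8 arrays, was 0.46, 0.046, -0.11 and 0.21 in the Si deplete arrays. In the Si replete arrays it was -0.19, -0.13, -0.27 and -0.30. Si deplete replicate 3 was thus nearest to the Si replete arrays, though still above all 4. The replicates are separate rats.

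**Figure D4:**
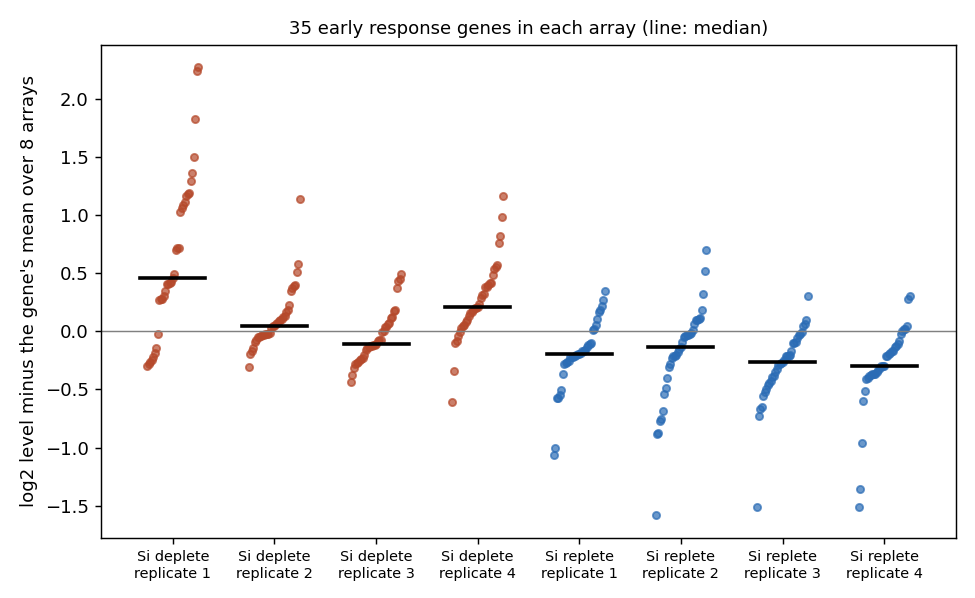
Level of each of the 35 genes in each array, as the log2 difference from its own mean over the 8 arrays, Si deplete left and Si replete right, with the median as a line. The median is 0.46 in Si deplete replicate 1 and between -0.30 and 0.21 in the other 7 arrays.

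Without Si deplete replicate 1, 32 of the 35 genes were above 0, and the median was 0.23. The number at an unadjusted p under 0.05 was then 10 (28.6%, against 8.67% of all genes), and 7 genes were separate (7.52% of all genes). All 7 were also separate with the 8 arrays. Myc had 2.05, Atf3 1.30, Egr1 1.15, Klf6 0.88, Ier5 0.59 and Jun 0.41, and Myc and Klf6 passed, each at an adjusted p of 0.0987. The differences of Fosb (0.10), Fos (0.099) and Fosl1 (0.16) were the ones that shrank most in proportion among the AP-1 subunits. Without Si deplete replicate 3, which lay lowest, 16 genes were separate and 4 passed, namely Myc, Klf6, Atf3 and Egr2. In that setting 235 of all probe sets passed as higher and 67 as lower, against 35 and 12 with all arrays. The share of all genes that were separate was not counted there, so the 16 cannot be set beside it.

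**Figure D5:**
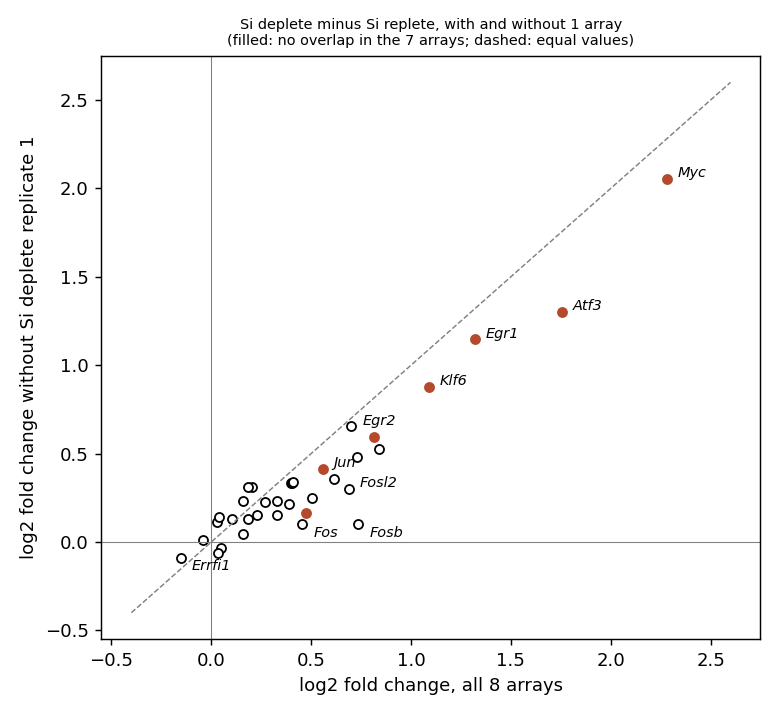
Log2 fold change of the 35 genes, Si deplete minus Si replete, with all 8 arrays (horizontal axis) and without Si deplete replicate 1 (vertical axis), 1 point per gene. Filled points are the 7 genes whose groups do not overlap in the 7 arrays; Myc keeps 2.05 of 2.28, and Fosb 0.10 of 0.74.

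Further immediate early genes, kept apart from the 35, were measured at 46 of 46. None passed, and the median log2 fold change was 0.19. Their mean level was 6.48 to 6.67 in Si deplete arrays and 6.27 to 6.39 in Si replete arrays, which did not overlap. At an unadjusted p under 0.05, 13 (28.3%) were higher, where 10.5% of all genes were. At that p 2 were lower (Pim3 and Klf9), where 7.95% of all genes were. The 4 with the smallest p among the higher ones were Nfkbiz (1.44) and Tnfaip3 (0.72), both regulators of nuclear factor kappa B, Irf1 (1.20), an interferon regulatory factor, and Rhob (0.57), a small GTPase. Of the kinases and factors upstream (extracellular signal-regulated kinase cascade, serum response factor, ternary complex factors and CREB), 23 of 31 were measured, with a median of 0.079. The mean level of the 23 was 7.35 to 7.42 in Si deplete arrays and 7.31 to 7.34 in Si replete arrays, which did not overlap either. None passed. At an unadjusted p under 0.05, 4 (17.4%) were higher, where 10.5% of all genes were, namely Nras (0.50), Elk3 (0.45), Mapk14 (0.25) and Map2k1 (0.19). Mapk8 (-0.19) and Araf (-0.22) were the 2 lower, where 7.95% of all genes were. Without Si deplete replicate 1, 2 of the 23 were higher, where 8.67% of all genes were, and 1 was lower.

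Downstream of Myc, 39 of 40 targets of ribosome production and growth were measured. None passed, and the median was 0.19. At an unadjusted p under 0.05, 9 (23.1%, against 10.5% of all genes) were higher. Among them were the helicase subunit Mcm4 (1.03), the ribosome assembly factors Ppan (0.54) and Utp20 (0.44) and the RNA polymerase I subunit Polr1b (0.38). The mean level of the 39 targets was 8.71 in Si deplete replicate 1. It was 8.19 to 8.35 in the other Si deplete arrays and 8.18 to 8.26 in the Si replete arrays. Without Si deplete replicate 1 the median was 0.054 and Mcm4 had 0.62, Ppan 0.35 and Utp20 0.29, while Polr1b kept 0.39. The 1 lower was Odc1, the first enzyme of polyamine synthesis, at -0.84. The 15 partners and antagonists of Myc had a median of -0.0017, and the 2 that were higher at an unadjusted p under 0.05 (13.3%, near the 10.5% of all genes) were the acetyltransferase scaffold Trrap (0.41) and the repressor Mnt (0.38). Of other acute responses, the medians were -0.00097 for 11 heat shock genes, -0.047 for 16 hypoxia response genes and 0.026 for 11 glucocorticoid response genes, with none passing. Of the glucocorticoid response genes 3 (27.3%, against 10.5% of all genes) were higher at an unadjusted p under 0.05, and none was lower. The 3 were Lcn2 (2.70), Rasd1 (1.32) and Mt2A (0.57). Of the 11 genes 6 were above 0 and 5 below, and Fkbp5 (0.026), Per1 (-0.047), Tat (-0.097) and Tsc22d3 (-0.27) were not higher at that p. The mean level of that list was 8.56 to 9.32 in Si deplete arrays and 8.26 to 8.47 in Si replete arrays, which did not overlap, and without Si deplete replicate 1 Rasd1 had 0.71. Hmox1, heme oxygenase, was the 1 heat shock gene (9.09%) higher at an unadjusted p under 0.05, at 1.41. It had 0.94 without Si deplete replicate 1, and Hspa4l (-0.39) was the 1 heat shock gene lower at that p. Pdk1, a kinase that restrains pyruvate dehydrogenase, was the 1 hypoxia gene at an unadjusted p under 0.05, at -0.57.

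Markers of kidney injury, macrophages and lymphocytes leaned the same way as the 35 genes. The 4 neutrophil markers measured had a median of -0.069, with 3 below 0. Of the 4 neutrophil markers, 3 had a mean level under 4, and the 1 above 0 (0.35) had an unadjusted p under 0.05. Of 20 injury genes 19 were measured and 16 (84.2%, against 10.5% of all genes) were higher at an unadjusted p under 0.05. The median log2 fold change of the injury genes was 0.82, and none passed. Cdkn1a and Lcn2 of this list were also on the lists of further immediate early genes and of glucocorticoid response genes. The injury genes' mean level ranged from 8.96 to 10.0 in Si deplete arrays and from 8.10 to 8.64 in Si replete arrays, which did not overlap, and was highest in Si deplete replicate 1. The 4 injury genes with the smallest unadjusted p were Spp1 (0.95), Cd44 (1.17), Havcr1 and Vim (0.60). Havcr1, the tubular injury marker also called Kim1, had 3.66 (adjusted p 0.134). The 12 macrophage and myeloid markers had a median of 0.52, all above 0. Of the 12, 5 (41.7%, against 10.5% of all genes) were higher at an unadjusted p under 0.05. The mean level of the 12 was 7.30 to 7.97 in Si deplete arrays and 6.79 to 7.53 in Si replete arrays. The 8 lymphocyte markers measured had 0.43 (2.92 to 3.67 in Si deplete arrays, 2.78 to 3.07 in Si replete arrays) and the 10 fibroblast and mural markers 0.31 (7.12 to 8.02 in Si deplete arrays, 6.81 to 7.34 in Si replete arrays). No marker of these lists passed. Ptprc, counted with the macrophage and myeloid markers, had 0.77, and Cd68 had 0.80. Cd3e (0.98) and Col1a1 (1.80) were the highest of the lymphocyte list and of the fibroblast and mural list. In the latter list 1 marker was below 0, at -0.25, and 6 of the 8 lymphocyte markers had a mean level under 4. The part of these cells and of injury in the result was not tested. Proximal tubule markers had a median of -0.15 and podocyte markers of -0.38, and endothelial markers of 0.040. The 5 blood cell markers measured had a median of -0.26, all below 0. Of these, 2 were lower at an unadjusted p under 0.05, where 7.95% of all genes were. The 5 collecting duct markers measured had a median of -0.22, with 4 below 0, and Slc4a1 is on both lists. The part of blood in the result was not tested.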

How the data were processed

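Per array and probe set, the authors deposited a log2 level for the 8 arrays, made by gcRMA with m-estimators (version 2.36.0 of GCRMA in the submitters' processing notes). Background correction and normalization are theirs, and further filters are not stated in the sources read. Of 31099 probe sets, 57 controls were left out. The diets were compared with limma 3.58.1 in R 4.3.3 by lmFit and eBayes, without a trend or robust prior. The difference is Si deplete minus Si replete. P-values were adjusted by the Benjamini-Hochberg method across the 31042 remaining probe sets, and a probe set passed under 0.1, the limit that the study's methods name. SE, intervals and adjusted p come from this fit. It was also run on simulated data with independent noise for each probe set and array. No simulated array stood apart, so that run does not show how the fit handles such an array. The p-values measure the spread between rats.

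The genes and lists were chosen with earlier results of these data known. Levels by array are given for Myc, Fos, Jun and Egr1 and for the 10 other genes with the smallest unadjusted p. Of each other list up to 4 genes with the smallest p are named. Lone lower or higher genes of a list, and genes outside these rules, were picked after their values were seen. Lists are described by counts and medians, with no list test. Levels were not compared between probe sets. Promoters come from RefSeq (GRCr8). The precision is limited by 4 arrays a group. The fit was repeated with a trend in intensity, with a robust prior, with weighted arrays, without dim probe sets (mean under 4), with each array's median subtracted, after quantile normalization, with the replicate number as a block, at a limit of 0.05, on averaged probe sets of each gene and without each array in turn.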

Additional observations from a re-analysis of the deposited data

Results flagged for a closer look

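In 8 of 70 groups of 4 arrays, 1 array lay apart, with the share of the group's range that its gap to the nearest array made up above Dixon's critical value for 4 samples. That share is given in parentheses. Chance alone gives about 1 in 20, or 3.5 of 70. Si deplete replicate 1 was the high array for Fosl1 (0.911) and Ier5 (0.885), and Si deplete replicate 4 was high for Nr4a1 (0.856). Si deplete replicate 3 was low for Egr2 (0.915), where it reached into the Si replete range. In the Si replete group, replicate 4 was low for Fos (0.893) and replicate 3 low for Errfi1 (0.929). Si replete replicate 3 was high for Dusp6 (0.957) and replicate 2 high for Dusp1 (0.951).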

How the results depend on the processing

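Over the alternative settings, 520 of 554 comparisons of a single gene kept their direction and their side of the threshold. Myc lost its call in 5, Egr1, Egr2, Atf3 and Klf6 gained one in 6, and 23 turned sign, in 7 genes near 0. Leaving out 1 array at a time gave 0 to 235 higher and 0 to 67 lower probe sets (35 and 12 with all arrays), 0 to 4 of the 35 genes called, 10 to 20 higher and 0 to 1 lower at an unadjusted p under 0.05, and 7 to 16 separate. The most came without Si deplete replicate 3. The share of all genes that were separate was counted only with all arrays and without Si deplete replicate 1. No probe set passed in limma once Si replete replicate 1, 2 or 3 or Si deplete replicate 2 was left out, beside 3334 to 3954 at an unadjusted p under 0.05, and without Si deplete replicate 4, 2 were higher and 2 lower. Without probe sets of a mean under 4, 58 were higher and 19 lower. The median over all probe sets was 3.85 to 3.92 in Si deplete arrays and 3.80 to 3.84 in Si replete arrays. With array medians subtracted, 33 were higher and 19 lower, and 11 of the 35 genes were higher at an unadjusted p under 0.05. With weighted arrays 12 of the 35 genes were. At an adjusted p under 0.05, limma called 0 higher, 0 lower and 0 of the 35 genes, beside 4638 probe sets at an unadjusted p under 0.05. The replicate block gave 90 higher probe sets and 3 of the 35 genes (Myc, Egr1 and Egr2). The study's methods describe processing 1 rat of each group on a day, but the labels tie no array to a day or to a number, so whether the numbers pair rats is not known. Deviations of same-numbered arrays correlated at 0.0883, 0.0904, 0.0787 and -0.0880, and 4 of 8 arrays correlated best with their own number. Without both Si deplete replicate 1 and Si replete replicate 4, chosen after seeing the data, 10 probe sets were higher and 1 lower, 10 of the 35 genes were higher at an unadjusted p under 0.05, the median was 0.215, Fos was at -0.33 and Gadd45b at -0.098. Signs turned with array medians subtracted for Egr3 (-0.031), Klf2 (-0.019), Gadd45b (-0.0090) and Sgk1 (-0.024), with array weights for Sgk1 (-0.015) and with averaged probe sets for Klf2 (-0.073). Leaving out 1 array gave -0.029 to 0.11 for Egr3, -0.092 to 0.47 for Nr4a1, -0.18 to 0.12 for Nr4a2, -0.038 to 0.31 for Nr4a3, -0.081 to 0.14 for Klf2, -0.037 to 0.18 for Gadd45b and -0.063 to 0.15 for Sgk1. The cause was not tested. Genes with a mean level under 4 (6 of the 35) lie close to the array's background, where differences are compressed.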
